A study of Mus musculus with 4 samples.

Results

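The genes described here are the 10 bone mineral matrix genes Bglap, Bglap2, Ibsp, Spp1, Alpl, Phex, Dmp1, Sparc, Mgp and Enpp1, chosen by their symbols among the 31053 genes counted in single-cell RNA sequencing of mouse bone. The study asked how the cell types of bone respond to the loss of mechanical load. Tibiae and femurs of 2 Ctrl mice and 2 HLU mice were flushed to remove marrow, digested with enzymes and sequenced as 1 library per mouse. All mice were wild type (C57BL/6J in the study's methods). HLU mice had been hung by the tail for 28 days, so that the hind limbs carried no weight, and Ctrl mice had no treatment. The study's methods give mice of 8 weeks and the deposited description gives postnatal day 28, and which of them applies is not settled here. The sex of the 4 mice is not given in the labels used here.

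Bone mineral is laid down in a matrix of collagen by osteoblasts and, in growing bone, beside enlarged chondrocytes. Alkaline phosphatase, the product of Alpl, frees phosphate from pyrophosphate and so removes an inhibitor of mineral growth, whereas Enpp1 makes pyrophosphate from ATP and Mgp (matrix Gla protein) restrains the calcification of cartilage and vessels. Ibsp (bone sialoprotein), Spp1 (osteopontin), Dmp1 and the osteocalcins Bglap and Bglap2 are secreted proteins that bind calcium or hydroxyapatite, Sparc (osteonectin) binds collagen and calcium, and Phex is a membrane endopeptidase of osteoblasts and osteocytes, the loss of which causes low blood phosphate. Osteopontin is made outside bone as well, by activated macrophages among other cells.

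Several of these genes are neighbours in the genome (mm10, GENCODE M21). Dmp1 (chromosome 5, 104202613 to 104214102, forward strand), Ibsp (104299171 to 104311469) and Spp1 (104435118 to 104441050) follow each other within 238438 bases. Bglap (chromosome 3, 88383501 to 88384464, reverse strand) and Bglap2 (88377736 to 88378699) lie 4801 bases apart beside the related Bglap3. The coding sequences of Bglap and Bglap2 are 285 bases long and differ at 4 of them, and 60.4% of the 90-base windows of the Bglap transcript occur unchanged in Bglap2. Reads from such windows cannot be assigned to 1 of the 2 genes, so the values of both are uncertain to that extent. The first 60 coding bases are shown because they hold the most differences between Bglap and Bglap2, 3 of the 4. Capitals mark the 3 positions at which the genes differ there. Bglap2 and Bglap3 are alike in this stretch but differ at 9 of their coding bases.
Bglap: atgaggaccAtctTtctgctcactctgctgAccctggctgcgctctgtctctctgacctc
Bglap2: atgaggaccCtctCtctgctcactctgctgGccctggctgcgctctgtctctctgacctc
Bglap3: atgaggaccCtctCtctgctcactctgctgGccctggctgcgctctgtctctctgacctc

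The 250 bases before the transcription start are shown for Bglap, Spp1 and Ibsp, 3 genes known as products of mature osteoblasts (RefSeq starts, GRCm38.p6). Capitals mark the core letters of the Runx binding motif, TGTGGT on either strand (ACCACA), and the TATA box letters TATAAA. Runx2 of this family is the master factor of the osteoblast. For Bglap the window is chr3:88384467-88384716 on the reverse strand, for Spp1 chr5:104434861-104435110 and for Ibsp chr5:104299037-104299286, both on the forward strand.
Bglap: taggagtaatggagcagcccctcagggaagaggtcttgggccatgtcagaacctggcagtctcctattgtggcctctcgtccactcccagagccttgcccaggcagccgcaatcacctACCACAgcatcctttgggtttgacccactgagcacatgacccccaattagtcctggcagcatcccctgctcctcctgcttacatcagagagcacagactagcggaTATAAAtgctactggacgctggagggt
Spp1: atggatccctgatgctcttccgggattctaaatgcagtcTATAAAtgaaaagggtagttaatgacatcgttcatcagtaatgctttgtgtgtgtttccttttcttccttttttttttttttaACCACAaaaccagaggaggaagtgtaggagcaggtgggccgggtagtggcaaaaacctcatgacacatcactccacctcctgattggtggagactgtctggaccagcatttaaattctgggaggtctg
Ibsp: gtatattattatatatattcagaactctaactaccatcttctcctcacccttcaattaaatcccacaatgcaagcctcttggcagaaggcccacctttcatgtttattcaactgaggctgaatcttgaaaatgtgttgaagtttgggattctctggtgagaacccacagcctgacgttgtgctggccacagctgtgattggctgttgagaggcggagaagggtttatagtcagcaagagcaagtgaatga

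The Runx letters stood 132 bases before the start of Bglap and 128 bases before that of Spp1, and they were in the windows of 4 of the 8 members matched in the RefSeq table (Bglap, Spp1, Dmp1 and Enpp1). Of all 32851 mouse promoter windows of this length, 14% held them. TATAAA, held by 7.59% of all windows, was in 2 of the 11, those shown for Bglap and Spp1, and the window of Ibsp held neither motif. The TATAAA letters stood 27 bases before the start of Bglap but 211 bases before that of Spp1, so the 2 matches are not alike in place. Such a match is a description of letters, not a site of binding.

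Barcodes with 1000 to 40000 UMIs (unique molecular identifiers, 1 for each captured transcript) and at most 10% mitochondrial UMIs were kept, which left 7340 and 7635 cells of the Ctrl mice and 7757 and 9485 of the HLU mice. The kept cells of a library held 45347595 to 87604282 UMIs, with medians of 3799 to 6294.5 UMIs per cell. Any pair of libraries shared 13 to 21 barcodes. Cells were gated into 16 classes by 148 marker genes, none of them a member, and 73.6% to 92.6% of the cells of a library entered a class. The cells gated as osteoblast, chondrocyte or stromal, together called skeletal here, made up 34.8% ± 5.98 (SD, n = 2) of Ctrl cells and 1.10% ± 0.312 of HLU cells (two-sided exact permutation p = 0.333, the smallest that 2 libraries against 2 allow). They numbered 2868, 2338, 68 and 125. Sets of 4 values are given in this order throughout, first Ctrl replicates 1 and 2 and then HLU replicates 1 and 2. Levels are UMIs of a gene per 10000 UMIs of the cells summed. They count 3′ ends and need no correction for gene length. Log2 fold changes are HLU minus Ctrl from edgeR fits over all genes of a sum, and adjusted p-values are from the same fits.

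Summed over all kept cells, every member had both HLU libraries below both Ctrl libraries, as had 37.1% of the 15385 genes tested. Sparc stood at 57.3, 51.6, 2.27 and 1.41 UMIs per 10000, and it fell by 4.83 on the log2 scale (SE 0.387, edgeR adjusted p = 0.00339). Ibsp, at 4.02, 1.90, 0.104 and 0.0857 UMIs per 10000, fell by 4.90 (SE 0.490, adjusted p = 0.00460). The gaps between the conditions were far wider than those between the mice of 1 condition in both genes. Enpp1 stood at 0.885, 0.867, 0.0600 and 0.0265 UMIs per 10000 and fell by 4.30. Mgp stood at 26.2, 23.3, 4.03 and 0.997 and fell by 3.27, and Spp1 stood at 55.2, 59.0, 12.3 and 3.40 and fell by 2.83. In Enpp1, Mgp and Spp1 the Ctrl libraries lay close together and HLU replicate 2 was the lowest library. Alpl, at 0.197, 0.215, 0.0331 and 0.0293 UMIs per 10000, fell by 2.65 with HLU libraries close to each other, and Phex, with 54, 88, 8 and 17 UMIs in all, fell by 2.63. With these, 7 of the 10 members passed an adjusted p of 0.05 with lower levels in HLU, beside 17.1% of all genes tested, and the members' median log2 fold change was -2.94 against 0.04 over all genes. Leaving out Ctrl replicate 2 left 4 members called, with 1136 of 15909 genes called in that fit, and leaving out Ctrl replicate 1 left 5, with 848 of 15977.

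Bglap2, Dmp1 and Bglap did not pass the test. Bglap2 stood at 0.283, 0.289, 0.0823 and 0.0187 UMIs per 10000 (log2 fold change -2.48, 95% interval -4.16 to -0.81, edgeR adjusted p = 0.0510). Bglap stood at 0.428, 0.479, 0.229 and 0.0292 (log2 fold change -1.80, interval -3.99 to 0.39), where HLU replicate 1 lay nearer to the Ctrl libraries than to HLU replicate 2. Dmp1, which osteocytes make, had 29, 302, 10 and 35 UMIs in all, so the Ctrl libraries differed from each other by more than HLU replicate 2 differed from Ctrl replicate 1. In such sums fewer cells of a type and less RNA per cell cannot be told apart. The 12 osteoblast markers of the gate moved the same way (summed level 10.95, 9.0, 1.28 and 0.392 UMIs per 10000, with 1 marker at 0 in each HLU library), and so did the 12 chondrocyte markers (83.0, 91.7, 2.63 and 1.92).

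**Figure D1:**
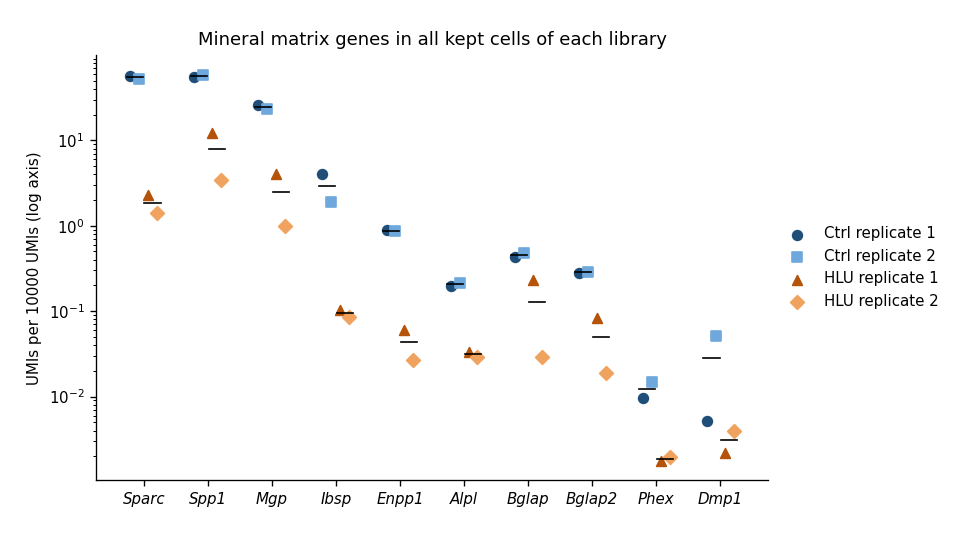
Level of each member over all kept cells (vertical log axis, UMIs per 10000 UMIs), with 1 symbol per library and a black line at the mean of the 2 libraries of each condition. Both HLU symbols lie below both Ctrl symbols for all 10 genes, with the widest gaps in Sparc, Ibsp and Enpp1.

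In the Ctrl libraries the members fell into groups by the class in which their level was highest. The osteocalcins, Ibsp, Spp1, Alpl and Dmp1 had their highest mean level in osteoblast-gated cells, whereas Sparc and Enpp1 had theirs in chondrocyte-gated cells. Bglap stood at 3.55 and 4.6 UMIs per 10000 in the osteoblast gate of Ctrl replicates 1 and 2, at 0.662 and 0.897 in the chondrocyte gate and at 0.402 and 0.215 in the stromal gate, 3 ranges that did not overlap. Bglap2 was at 3.20 and 4.45 in the osteoblast gate, but its order below differed from that of Bglap: 0.603 and 0.460 in the stromal gate stood above 0.189 and 0.335 in the chondrocyte gate. Ibsp was at 35.4 and 11.9 in the osteoblast gate, 5.4 and 4.05 in the chondrocyte gate and 1.17 and 1.25 in the stromal gate. Spp1 followed the same order, with 237 and 400 UMIs per 10000 in the osteoblast gate, 71.6 and 95.2 in the chondrocyte gate and 39.9 and 39.8 in the stromal gate. Alpl, at 1.37 and 1.22 in osteoblast-gated cells, stood at 0.290 and 0.399 in the chondrocyte gate. A gate of 10 and 13 Ctrl cells with erythroid markers lay between osteoblasts and chondrocytes in Spp1, Ibsp and the osteocalcins, and its replicates ranged from 2.83 to 284 UMIs per 10000 in Spp1, so its place in the order is not resolved.

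Sparc levels lay close to each other in the cartilage and bone gates of the Ctrl libraries, at 124 and 123 UMIs per 10000 in chondrocyte-gated cells and 113 and 115 in osteoblast-gated cells, without overlap, and were lower in stromal cells (31.2 and 46.8). Enpp1 did not separate chondrocytes (1.77 and 1.99) from osteoblasts (1.5 and 2.11), while its stromal level was 0.452 and 0.491. Mgp stood at 47.6 and 43.9 in the chondrocyte gate and at 28.5 and 67.1 in the osteoblast gate, which therefore overlap, and the 26 and 33 osteoclast-gated cells had 62.4 and 57.2. Alpl and Enpp1, which remove and make pyrophosphate, differed in this respect: Alpl was higher in the osteoblast than in the chondrocyte gate of both Ctrl libraries, and Enpp1 overlapped between the gates. Dmp1 (0.0182 and 1.02) and Phex (0.00606 and 0.167) in the osteoblast gate rested on 3 and 110 UMIs and on 1 and 18 UMIs, which gives no stable level.

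**Figure D2:**
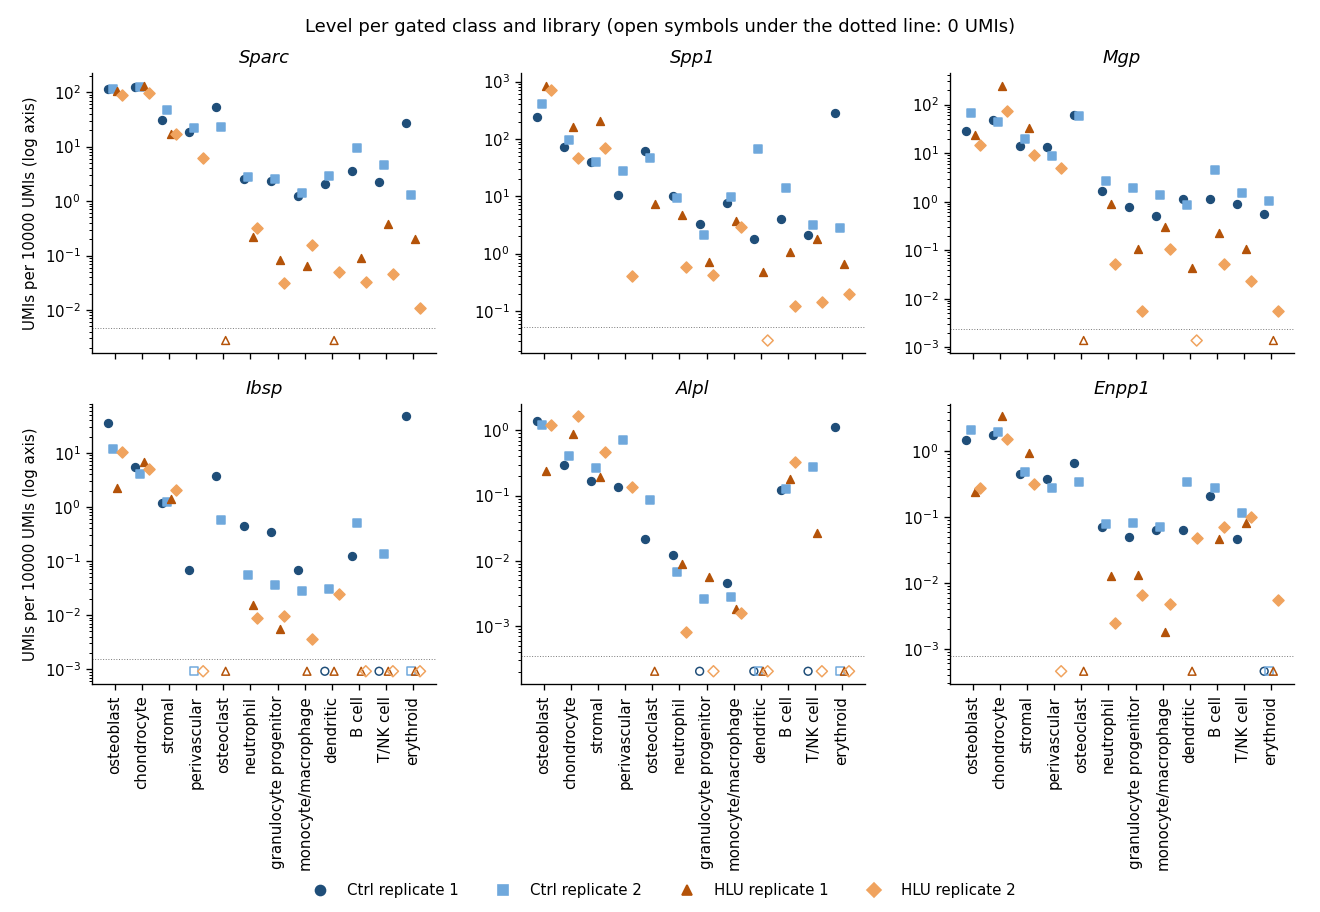
Level of 6 members (vertical log axes, UMIs per 10000 UMIs) in 12 gated classes, with 1 symbol per library that had at least 5 cells in the class. Open symbols under the dotted line mark 0 UMIs. In the chondrocyte gate the symbols of a gene lie within a factor of 10, and from neutrophils to erythroid cells the HLU symbols of Sparc and Mgp lie below the Ctrl symbols.

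UMIs of the matrix genes were packed into few cells, to a degree that differed between members. In Ctrl replicates 1 and 2, 50% of all Bglap UMIs lay in 14 and 15 cells, of 7340 and 7635 kept. Sparc UMIs were spread wider, with 253 and 204 cells for the same share, and those of Enpp1 needed 352 and 299 cells. Bglap was held by fewer cells than Ibsp, Spp1, Alpl, Sparc, Mgp or Enpp1 in both Ctrl libraries. In the HLU libraries 2 cells and 1 cell held 50% of the Bglap UMIs, and a single cell of HLU replicate 2 held 195 of the 256. Without the richest cell of each library the Bglap levels would be 0.372, 0.427, 0.142 and 0.00696 UMIs per 10000, so that HLU replicate 1 moved away from the Ctrl libraries. In such levels, here and below, the UMIs of the gene in that cell are left out, and its other UMIs stay in the total. For Dmp1 the cells that held 50% of the UMIs numbered 6, 3, 1 and 1.

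**Figure D3:**
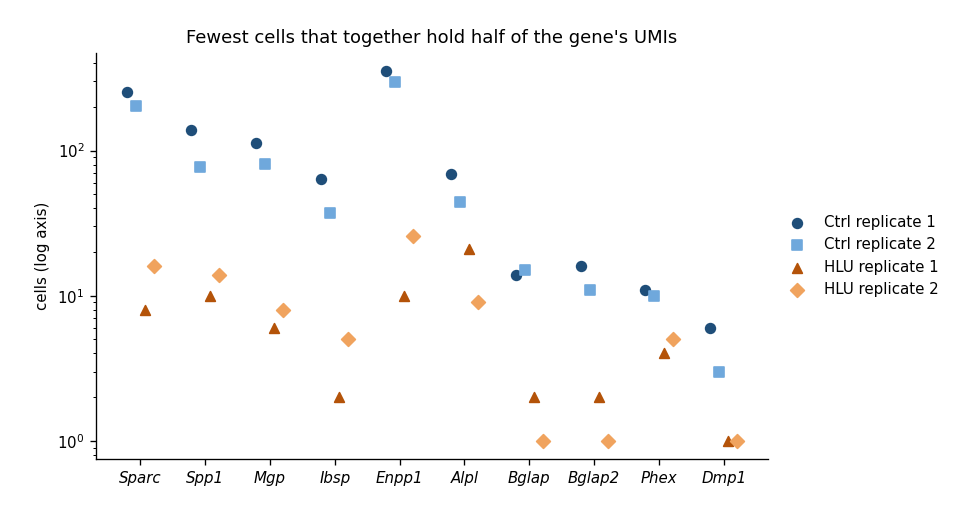
Fewest cells that together hold 50% of the UMIs of each member (vertical log axis, number of cells), with 1 symbol per library. Ctrl libraries needed from 3 cells for Dmp1 to 352 for Enpp1, and HLU libraries from 1 to 26.

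Co-detection of the osteocalcins and of other members was counted cell by cell. Of the 29 and 15 osteoblast-gated Ctrl cells with a Bglap UMI, 28 and 14 also had an Ibsp UMI, whereas Ibsp was detected in 121 and 56 of the 161 and 84 cells. Bglap2 UMIs were found in 23 and 11 of these cells, 18 and 10 of which also had Bglap. Reads from the sequence that both genes share cannot be assigned to 1 of them, so these counts are uncertain to that extent. In the chondrocyte gate 58 of 125 and 55 of 169 cells with Bglap had Ibsp as well, and Ibsp was in 620 of all 1938 and 372 of all 1795 cells. Spp1 and Mgp met in 95 and 62 of the osteoblast-gated cells, where Spp1 alone was counted in 147 and 80 cells and Mgp in 104 and 64, with or without the other. Cells differ in depth, so these are counts and not tests. How far they exceed what the separate counts of each gene would give was not tested.

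The second question was whether the members differed between conditions within the skeletal cells that remained. In the sums of skeletal-gated cells 0 of the 10 members passed an adjusted p of 0.05 in edgeR, 3 had an unadjusted p under 0.05, and DESeq2 called 1 of them (Bglap), with 438 of 19962 genes. The background at the adjusted threshold was as low, with 0% of the 13070 genes tested called in either direction. Counts at an unadjusted p, here and below, have no share over all genes beside them, so they show no excess of members. Sparc stood at 99.7, 106, 100 and 70.4 UMIs per 10000 in these cells, with a log2 fold change of -0.59 (95% interval -1.42 to 0.23). Ibsp stood at 6.05, 3.79, 4.70 and 4.56 (-0.40, interval -1.17 to 0.37) and Enpp1 at 1.41, 1.68, 2.24 and 1.06 (-0.24, interval -1.18 to 0.69). The conditions overlapped in Ibsp and Enpp1, and in Sparc HLU replicate 2 was the low library. The lower ends of these 3 intervals lay above the fold changes of the same genes over all cells. Leaving out HLU replicate 2 gave 4 called members with 468 of 14249 genes called, and leaving out HLU replicate 1 gave 1 with 1430 of 14317, while leaving out either Ctrl library gave 0 members.

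Among the other members of the skeletal sums, 6 had both HLU libraries above both Ctrl libraries, a placement shared by 40.9% of all genes tested. These sums pool the osteoblast, chondrocyte and stromal gates, and the part of that mix in the levels was not tested. The osteoblast gate held 24.4%, 17.6%, 65.7% and 83.2% of all Bglap UMIs of a library. For Spp1 it held 12.6%, 12.4%, 25.5% and 25.7%. Alpl stood at 0.322, 0.404, 0.601 and 1.25 UMIs per 10000 (log2 fold change 1.05, interval 0.11 to 2.00, edgeR adjusted p = 0.268). Spp1 stood at 73.0, 96.1, 299 and 104 (0.92, interval -0.43 to 2.26) and Mgp at 37.9, 39.7, 156 and 49.5 (1.07, interval -0.29 to 2.44). In both of these genes HLU replicate 1 stood apart and HLU replicate 2 lay close to the Ctrl libraries. Bglap stood at 0.762, 0.907, 10.3 and 1.5 (2.47, interval 0.43 to 4.52, adjusted p = 0.248) and Bglap2 at 0.470, 0.532, 3.72 and 0.870 (1.85). Without the richest cell of each library the Bglap levels were 0.653, 0.790, 5.85 and 0.146, and those of Bglap2 0.428, 0.416, 1.86 and 0.125, so in both genes 1 cell of HLU replicate 2 set its side of the Ctrl range. Spp1 without those cells stood at 71.2, 94.3, 246 and 83.9, where HLU replicate 2 lay within the Ctrl range. Phex (50, 67, 3 and 6 UMIs) and Dmp1 (24, 177, 10 and 9 UMIs) are too thinly counted for a direction. Scaling by library totals in place of TMM factors moved the median of all genes in these sums to a log2 fold change of 0.30.

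Osteoblast-gated cells numbered 161, 84, 6 and 9, too few in HLU for a test. Their levels are given as values. Spp1 stood at 237, 400, 846 and 707 UMIs per 10000 and Bglap at 3.55, 4.6, 40.7 and 19.6, and in both genes the 2 HLU values exceeded the 2 Ctrl values. Without the richest cell of each library Bglap stood at 2.22, 1.78, 17.1 and 1.66, so most of the HLU replicate 2 level came from 1 cell with 195 of its 213 UMIs. Spp1 without its richest cells stood at 207, 363, 560 and 445. The totals keep the other UMIs of those cells, which lowers such values most where cells are few, as in HLU. The side of HLU replicate 2 in Bglap is therefore not settled. Sparc, at 113, 115, 107 and 87.4, and Ibsp, at 35.4, 11.9, 2.21 and 10.5, lay lower in HLU. Enpp1 did so as well (1.5, 2.11, 0.239 and 0.277, the HLU values from 4 and 3 UMIs). Alpl (1.37, 1.22, 0.239 and 1.199) and Mgp (28.5, 67.1, 23.5 and 14.8) also lay lower, unlike in the skeletal and chondrocyte sums. The HLU values of Alpl came from 4 and 13 UMIs, and 1 cell held all 393 Mgp UMIs of HLU replicate 1. The gated cells were not alike in their gate markers: the median cell held 29.9 UMIs per 10000 of the 12 osteoblast markers in Ctrl and 135 in HLU, and 14.2 against 3.21 of the 12 chondrocyte markers. The part of this difference in the member values was not tested.

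Chondrocyte-gated cells (1938, 1795, 40 and 78) were the largest skeletal class, and 0 of the 10 members passed the test in their sums, as did 0% of the 12425 genes tested. At an unadjusted p under 0.05 there were 2 members, and DESeq2 called Alpl, with 223 of 19164 genes. Without HLU replicate 1 there were 3 called members with 891 of 13581 genes called, and without HLU replicate 2 there were 2 with 72 of 13539. Alpl stood at 0.290, 0.399, 0.875 and 1.64 UMIs per 10000 (log2 fold change 1.60, interval 0.70 to 2.50, edgeR adjusted p = 0.226), and the HLU values did not overlap with the Ctrl values, as in 34.5% of all genes tested. Mgp stood at 47.6, 43.9, 246 and 73.4 (1.52, interval 0.09 to 2.94, adjusted p = 0.319), again with HLU replicate 1 far above the rest. Spp1 stood at 71.6, 95.2, 161 and 47.1, and its HLU libraries lay on either side of the Ctrl range (0.03, interval -1.40 to 1.47). Sparc, at 124, 123, 131 and 94.5, and Enpp1, at 1.77, 1.99, 3.38 and 1.51, also overlapped between conditions. Library totals moved the median of all genes to 0.24 here.

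Col10a1, the collagen of hypertrophic chondrocytes, the cells next to which cartilage calcifies, was used to divide the chondrocyte gate. Cells with a share of Col10a1 UMIs above its mean share over the 4 libraries are called Col10a1 cells here. The other cells may still hold Col10a1 UMIs. In Ctrl replicates 1 and 2, Col10a1 cells had 16.5 and 17.1 UMIs of Mgp per 10000, against 63.8 and 59.1 in the other cells. Ibsp was higher in the Col10a1 cells (6.18 and 7.13 against 5.0 and 2.29) and so was Spp1 (91.3 and 124 against 61.3 and 78.5). The inhibitor Mgp and the mineral-binding Ibsp and Spp1 lay on opposite sides of this division in both Ctrl mice. Bglap was lower in Col10a1 cells (0.140 and 0.227 against 0.934 and 1.28), and Sparc differed little (121 and 111 against 126 and 129). In HLU, with 9 and 15 Col10a1 cells, the division of Mgp was not repeated: the values were 176 and 153 in Col10a1 cells and 265 and 57.5 in the others. That of Spp1 was not repeated in HLU replicate 1, where the other cells, at 174 UMIs per 10000, stood above the Col10a1 cells. In HLU replicate 2 the Col10a1 cells, at 235 UMIs of Spp1 per 10000, stood above the others. Ibsp was higher in the Col10a1 cells of both HLU libraries. Each level pools the cells of 1 library, so no test was made, and Col10a1 is itself a marker of the gate.

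Stromal-gated cells (769, 459, 22 and 38) also gave 0 called members of the 8 tested, beside 0.408% of 10542 genes, with 1 member at an unadjusted p under 0.05 and Sparc called by DESeq2, with 280 of 17231 genes. Without HLU replicate 2 there were 2 called members with 621 of 11779 genes called, and without HLU replicate 1 there was 1 with 610 of 11896. Sparc stood at 31.2, 46.8, 16.9 and 16.7 UMIs per 10000 (log2 fold change -1.55, interval -2.72 to -0.38, edgeR adjusted p = 0.210), with both HLU libraries low and close together. Spp1 stood at 39.9, 39.8, 205 and 69.4 (1.40, interval -0.12 to 2.92), also without overlap. Ibsp (1.17, 1.25, 1.42 and 2.07) and Spp1 were the 2 tested members with both HLU libraries above Ctrl, beside 36.1% of all genes. Without the richest cell of each library Ibsp stood at 1.11, 1.15, 0.881 and 0.344, with both HLU libraries below Ctrl. Mgp (14.1, 19.7, 33.4 and 9.16) and Enpp1 (0.452, 0.491, 0.930 and 0.321) had 1 HLU library on each side of the Ctrl range. The stromal values of Sparc and Spp1 therefore lay on opposite sides, and neither passed the test.

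**Figure D4:**
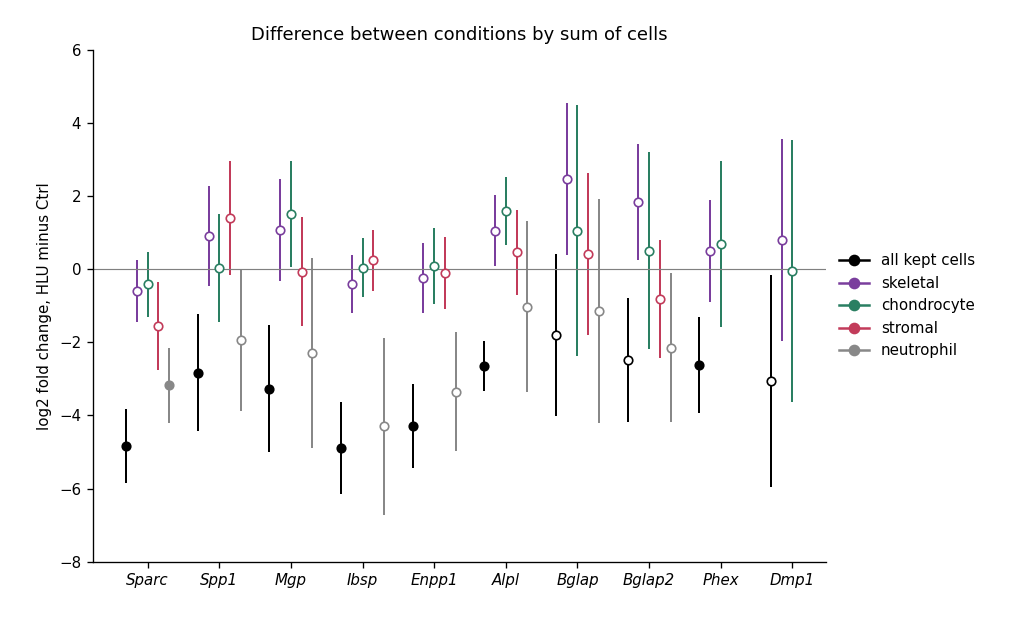
Log2 fold change of each member, HLU minus Ctrl (vertical axis), in the sums of all kept cells, skeletal, chondrocyte, stromal and neutrophil cells, with 95% intervals from edgeR and filled symbols where the adjusted p is under 0.05. Over all cells every point is below 0, in the skeletal sums most intervals include 0, and in neutrophils Sparc alone is filled.

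UMIs of the matrix genes also occurred outside the skeletal gates, in ungated and in blood cells. Outside the skeletal gates Sparc stood at 11 ± 3.57 (SD, n = 2) UMIs per 10000 in Ctrl and 0.272 ± 0.0182 in HLU, and Spp1 at 33.2 ± 5.05 and 4.11 ± 3.36. Ungated cells held most of these UMIs in Ctrl, 9.58% and 6.29% of all Sparc UMIs and 27.4% and 21.1% of all Spp1 UMIs of the 2 libraries. Without the skeletal-gated cells, but with the ungated ones, 6 of the 10 members were called lower in HLU, while 1248 of 14375 genes were called lower in that fit. In neutrophils, the largest class with 1816, 2659, 4746 and 4980 cells, Sparc stood at 2.57, 2.76, 0.217 and 0.317 UMIs per 10000 and fell by 3.18 (SE 0.408, edgeR adjusted p = 0.0199). It was the 1 member called of 8 tested, beside 3.38% of 11585 genes called lower, and leaving out HLU replicate 1 gave 9 called members with 4691 of 11521 genes called, leaving out HLU replicate 2 gave 6 with 953 of 11559. Of the 1170 Sparc UMIs of HLU replicate 2 neutrophils, 2 cells held 1030 (88.0%), 681 of them in 1 cell. Without that richest cell alone the level was 0.132, which still includes the other rich cell. Spp1 stood at 10.1, 9.26, 4.68 and 0.590 in neutrophils, lower in each HLU library than in either Ctrl library (log2 fold change -1.93, interval -3.85 to -0.02, adjusted p = 0.382).

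Most members tested in blood classes were lower in both HLU libraries. They were 6 of 8 in neutrophils (all genes 23.2%), 7 of 7 in granulocyte progenitors (9.55%), 5 of 5 in monocytes (17.3%) and 5 of 6 in B cells (12.7%). All 3 were lower in dendritic cells (13%), T and NK cells (14.8%) and basophils (16.2%), and both tested in erythroid cells (29.6%). Genes with too few UMIs were not tested, and some members passed that filter through their Ctrl counts. Examples are Ibsp in B cells (88 UMIs in Ctrl, 0 in HLU) and Sparc in dendritic cells (127 and 2). Enpp1 in T and NK cells (7 and 16 UMIs) was not tested. The filter thus helped to set these tallies, which show no direction by themselves. In monocyte/macrophage-gated cells (197, 307, 435 and 1350) Spp1 stood at 7.64, 9.63, 3.67 and 2.91 UMIs per 10000 (log2 fold change -1.42, interval -2.17 to -0.67, edgeR adjusted p = 0.476) and Sparc at 1.24, 1.43, 0.0637 and 0.157 (-3.57). None of 5 members tested there was called by edgeR, while 5 had an unadjusted p under 0.05 and DESeq2 called 4, with 109 of 16751 genes. The share called by edgeR among all 10388 genes was 0%. Leaving out either HLU library gave 5 called members, with 3625 of 10420 genes called without HLU replicate 1 and 277 of 10399 without HLU replicate 2. In B cells Sparc (3.53, 9.37, 0.0886 and 0.0322), Ibsp (9, 79, 0 and 0 UMIs) and Mgp (1.12, 4.46, 0.223 and 0.0515) were called lower, 3 of 6 members tested beside 2.03% of 9096 genes. Sparc was also called lower in granulocyte progenitors (1 of 7 members, beside 0.289% of genes) and Mgp in T and NK cells (1 of 3, beside 0.412%). Spp1 and Sparc were called lower in erythroid cells (2 of 2, beside 5.23%), but there 10 cells carried 1501 Spp1 UMIs in Ctrl replicate 1, against 22 UMIs in Ctrl replicate 2. The filter bears on these calls too. Ibsp in B cells had 0 UMIs in HLU, and Mgp in T and NK cells had 97 UMIs in Ctrl and 7 in HLU. Calls of genes that passed the filter through Ctrl are values and give no support for a direction. Dendritic cells and basophils gave 0 called of 3 members each, beside 0% and 0.175% of genes called lower at the adjusted threshold. At an unadjusted p under 0.05 there were 3 of 3, a count without a share over all genes beside it.

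Barcodes with fewer than 1000 UMIs, which can hold free RNA or damaged cells, carried the same genes. They numbered 2585, 2212, 2143 and 267, of 10000, 10000, 10000 and 10003 barcodes deposited, so their number depends on where the deposited lists end. Their Spp1 level was 53.6, 38.2, 24.9 and 2.66 UMIs per 10000 and their Sparc level 33.9, 37.2, 3.15 and 1.07. The HLU replicate 2 levels rest on 52 Spp1 and 21 Sparc UMIs, so the proportions that use them are uncertain. Both were lower in both HLU libraries, as in the blood cells. The neutrophil level of Spp1 was 18.8%, 24.3%, 18.8% and 22.2% of the level in these barcodes, while both levels varied by more than 10-fold. Whether the UMIs of both have 1 source was not tested. For Sparc the proportion was 7.6%, 7.40%, 6.89% and 29.5%, the last with the 2 rich cells that held 88.0% of its UMIs. B cells had 7.51%, 36.6%, 4.24% and 4.6% for Spp1.

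Shares of cells with a UMI behaved likewise. After each cell was thinned to 1000 UMIs, Spp1 was detected in 39.8%, 42.1%, 20.3% and 3.38% of neutrophils (unthinned 72.6%, 80.6%, 40.8% and 16%, at median depths of 3456.5, 3651, 3537 and 5886.5 UMIs). The thinned share in B cells was 30.3%, 30.6%, 6.49% and 1.2% (unthinned 71.4%, 79.4%, 20.9% and 3.64%, at median depths of 3637, 4195.5, 3732 and 2575). Monocytes had 25.5%, 33.2%, 15.7% and 10.3% (unthinned 81.2%, 88.6%, 51.3% and 32.1%, at median depths of 9593 to 12202). The monocyte share was below the B cell share in Ctrl replicate 1 and just above it in Ctrl replicate 2. In both HLU libraries monocytes stood well above B cells. Sparc was detected in 21.8%, 25.8%, 2.85% and 0.340% of neutrophils after thinning, and in 78.4%, 80.3%, 88.7% and 78.2% of chondrocyte-gated cells.

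The ratio of Spp1 to Sparc UMIs was compared between classes and the barcodes under 1000 UMIs. Barcodes under 1000 UMIs had 1.58, 1.02, 7.92 and 2.48 Spp1 UMIs per Sparc UMI, the last from 52 Spp1 and 21 Sparc UMIs. B cells had 1.14, 1.49, 11.9 and 3.80, and T and NK cells had 0.957, 0.680, 4.86 and 3.17. Monocytes had 6.18, 6.73, 57.5 and 18.5, which was 3.91, 6.57, 7.26 and 7.49 times the ratio in the barcodes of the same library. The counting intervals of the monocyte ratio lay above those of the low barcodes in all 4 libraries. Part of the monocyte Spp1 lay in few cells: 2, 7, 3 and 2 monocytes held 33.0%, 29.8%, 22.8% and 13.6% of it. Ungated cells with too few markers on had raised ratios as well, at 3.55, 6.93, 30.3 and 11.8. Neutrophils had 3.92, 3.36, 21.6 and 1.86, above the counting interval of the low barcodes in 3 of 4 libraries. The value of HLU replicate 2 lay within that interval (1.49 to 4.11). It includes the 2 Sparc-rich cells, which held 1030 of the 1170 Sparc UMIs, so its place is not settled. Monocytes held 0.539%, 0.982%, 3.62% and 18.6% of all Spp1 UMIs of a library, whereas skeletal cells held 67.2%, 71.9%, 48.2% and 49.9%.

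**Figure D5:**
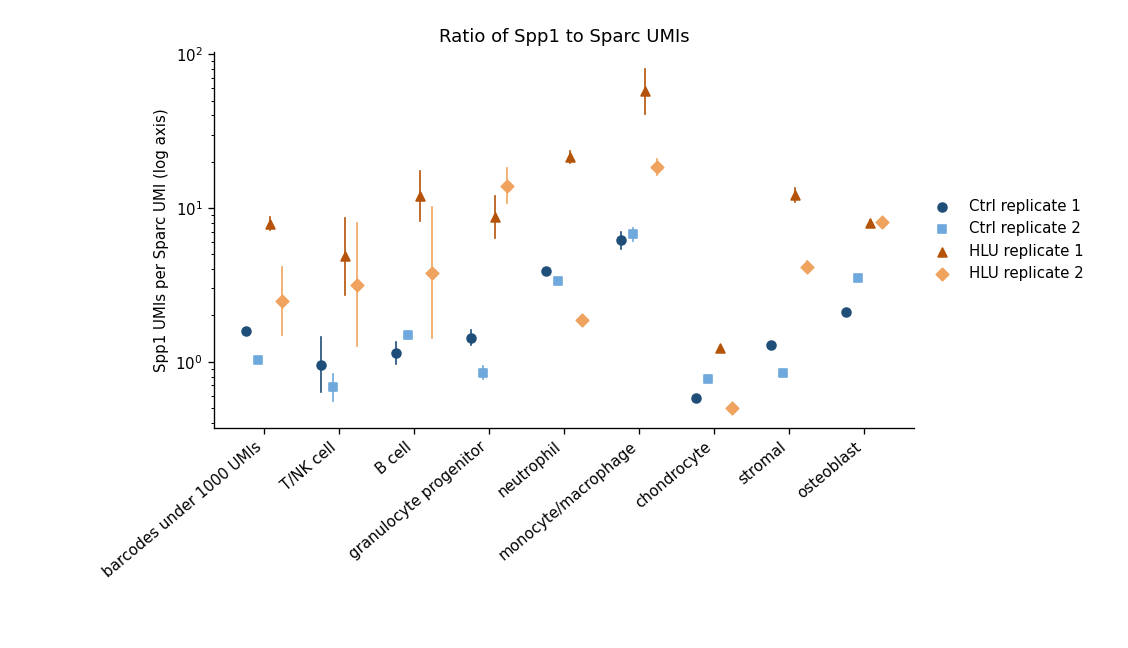
Spp1 UMIs per Sparc UMI (vertical log axis) in barcodes under 1000 UMIs and in 8 gated classes, with 1 symbol per library and 95% counting intervals. Monocyte symbols lie above those of the low barcodes, B cells and T and NK cells in every library, and chondrocytes have the lowest ratio in 3 of 4 libraries.

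Alpl followed another pattern in blood. B cells had 0.124, 0.127, 0.177 and 0.328 UMIs of Alpl per 10000 (9, 20, 58 and 51 UMIs), and the 2 HLU values exceeded the 2 Ctrl values, as in 28.2% of genes (log2 fold change 0.86, interval -0.21 to 1.94, edgeR adjusted p = 0.839). The other 5 members tested in B cells were all lower in both HLU libraries, a tally that the filter on low counts helped to set. B cells held 0.810%, 1.58%, 38.7% and 19.8% of the Alpl UMIs of a library. In the barcodes under 1000 UMIs Alpl stood at 0.131, 0.123, 0.0361 and 0 UMIs per 10000, the last from 0 UMIs, and the B cell level was 95.1%, 103% and 491% of that level in the first 3 libraries. Neutrophils (0.0122, 0.00670, 0.00890 and 0.000812) and monocytes (1, 1, 1 and 3 UMIs) had little Alpl in either condition.

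Other genes of mineral formation, 38 in 5 lists, were read for comparison. Over all kept cells 21 of the 32 tested fell in HLU and 0 rose, beside 17.1% of all genes called lower and 6.06% called higher, with a median log2 fold change of -2.46 over the 32. Among other matrix proteins 6 of 8 fell, including Bgn (biglycan; 11, 8.67, 0.287 and 0.141 UMIs per 10000), the calcium-binding Smoc2 (3.94, 3.30, 0.0170 and 0.0525) and Sparcl1, a relative of Sparc. Mepe, an osteocyte phosphoprotein, had 95, 78, 0 and 0 UMIs. Phosphate and pyrophosphate handling gave 5 of 7, among them Nt5e, which cleaves AMP (log2 fold change -3.85), Ank, which exports pyrophosphate or ATP (-3.12), and the phosphate carrier Slc20a1 (-2.65). The modifying enzymes gave 6 of 7, with the collagen cross-linker Lox at 5.60, 5.05, 0.113 and 0.140, the kinase Fam20c at 0.875, 0.671, 0.219 and 0.301, and Vkorc1 of the vitamin K cycle, which Gla proteins need. Of the receptors 2 of 6 fell (Itgav and Itgb5), with Cd44, a receptor of osteopontin that blood cells carry, at 2.77, 2.77, 3.46 and 3.0 UMIs per 10000. Of the regulators 2 of 4 fell (Gja1 and Pth1r), while Runx2 stood at 0.202, 0.265, 0.308 and 0.0960.

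Within skeletal sums 0 of the 30 pathway genes tested were called. In the stromal sums 1 of 27 was called, the vitamin D receptor Vdr, beside 0.275% of all genes called higher, which rose from 0.0190 and 0.0676 to 1.86 and 1.03 UMIs per 10000 (edgeR adjusted p = 0.0346, from 14, 37, 38 and 45 UMIs). In neutrophils 4 of 27 fell (Bgn, Sparcl1, Smoc2 and Slc20a1), beside 3.38% of all genes called lower. In B cells 7 of 16 fell, among them Bgn, Smoc2, Lox and Nt5e, beside 2.03%. Granulocyte progenitors gave 2 of 21, beside 0.289%, and monocytes 0 of 21, beside 0%. Dendritic cells, T and NK cells, basophils and erythroid cells gave 0. The filter on low counts bears on these blood counts as well. The osteocyte genes Sost (0, 6, 0 and 0 UMIs) and Fgf23 (0, 2, 2 and 9 UMIs) were at or near 0 in all libraries, where 3 UMIs are the limit that a count of 0 allows.

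The genes whose level ran most like that of a member over 42 sums of a class in a library are named by rank (Pearson r of log2 values; the sums share libraries and depth, so no p is given). For Sparc they were Col6a1 (r = 0.97), Col6a2 (0.97) and Ddit4l (0.97), and for Mgp Col6a3 (0.97), Col6a1 (0.96) and Cyr61 (0.96). Spp1 ran with Fn1 (0.91), Bgn (0.91) and Timp1 (0.90), and Ibsp with Colec12 (0.92), Srpx2 (0.92) and Fmod (0.91). Enpp1 ran with Snhg18, Srpx2 and Foxc1 (0.93 each). Alpl ran with Ehd2 (0.88), Lmo7 (0.85) and Adarb1 (0.84). For the osteocalcins they were Fzd2 (0.87), Rarres1 (0.84) and the osteoblast factor Sp7 (0.83) with Bglap and Dagla (0.88), Galr2 (0.88) and Nudt11 (0.86) with Bglap2. Likeness was lowest for Phex (Palmd, 0.70, Kazald1, 0.69, and Bmpr1b, 0.68) and Dmp1 (4930425P05Rik, 0.70, Flvcr2, 0.70, and Arhgef26, 0.69).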

How the data were processed

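The libraries were made with a 10x Genomics 3′ kit. The authors counted UMIs on mm10 with Cell Ranger 6.0.0, per the submitters' processing notes, and deposited raw UMI counts per gene and barcode, without normalization. The notes also name Seurat 4.1.0, which was not used here. Cells were gated by the class with the largest share of markers on, at least 3, where a marker is on in a cell above its mean share of UMIs over the 4 libraries. This cut-off was set after the marker data were seen, since neutrophil transcripts occurred in nearly all cells. Putative doublets (Scrublet in scanpy 1.11.5) were kept and removed as an alternative. UMIs were summed per class and library and tested with edgeR 4.0.16 (filterByExpr, TMM, quasi-likelihood, Benjamini-Hochberg over all genes tested, threshold 0.05), in classes with at least 10 cells in every library. DESeq2 1.42.0, under R 4.3.3, was an alternative. The tests were tried on simulated counts. Intervals of ratios cover counting error only. Replicate numbers do not mark shared animals. The mice count as the replicates, and nothing further is stated about litters or batches. All 10 members are named, with pathway genes past the threshold or of the highest level and the 3 genes most like each member. The members, lists and tests were chosen with earlier results of these data known.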

Additional observations from a re-analysis of the deposited data

Results flagged for a closer look

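The difference between conditions was itself compared between skeletal and blood classes, with an interaction term in edgeR fits that held libraries as blocks. These tests were chosen after the data were seen. Each value is the log2 fold change, HLU minus Ctrl, in the first class minus that in the second, past an adjusted p of 0.05. Chondrocyte-gated cells minus neutrophils gave 5 of 10 members, with Mgp at 4.44, Ibsp at 3.75, Enpp1 at 3.51, Sparc at 2.80 and Spp1 at 2.23, while 832 of 13607 genes were called. Stromal-gated cells minus neutrophils gave Ibsp at 3.94, Spp1 at 3.65, Enpp1 at 3.37, Mgp at 2.87 and Sparc at 1.68, while 758 of 12677 genes were called. Dmp1 also passed the threshold there, at 10.8, but this value supports no call. Neutrophils had 0, 65, 0 and 0 UMIs of it, 33 of them in 1 cell, so it rests on 1 library and on the prior count, and Dmp1 was not tested in either class alone. Against monocytes, chondrocyte-gated cells gave 2 of 8, with Enpp1 at 3.84 and Mgp at 3.55, while 39 of 11913 genes were called. Stromal-gated cells against monocytes gave 2 of 9, with Ibsp at 4.17 and Enpp1 at 3.59, while 97 of 12119 genes were called. The Ibsp values rest in part on single cells and few UMIs, so they are not settled. In neutrophils of Ctrl replicate 1, 1 cell held 285 of the 399 Ibsp UMIs. In stromal-gated cells of HLU replicate 2, 1 cell held 75 of the 90. Monocytes had 25 Ibsp UMIs in Ctrl and 7 in HLU. The levels of the same genes in barcodes under 1000 UMIs were lower in HLU as well, and their part in these differences was not tested.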

How the results depend on the processing

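The counts of called members depended on the fit. DESeq2 called 1 member each in the chondrocyte, stromal and skeletal sums, 3 in neutrophils, 4 in monocytes and 17 in the other blood classes, where edgeR called 0, 0, 0, 1, 0 and 7. Counts for the other blood classes, here and below, are added over those classes, so 1 member can count once in each. Without the filter on low counts the stromal, skeletal, neutrophil, monocyte and other blood sums gave 2, 3, 7, 5 and 30. Same-numbered replicates did not deviate together (correlations from -0.11 to 0.15). Such correlations over the genes of 4 libraries cannot show whether same-numbered mice shared a litter or a batch. With the replicate number as a block the sums of all cells gave 10 called members, and chondrocyte, neutrophil, monocyte and other blood sums gave 1, 3, 1 and 13. The crossed pairing, added after the data were seen, gave 9 over all cells, with 3665 of 15385 genes called in that fit. Leaving out 1 library gave 4 to 9 members over all cells, 0 to 3 in chondrocytes, 0 to 2 in stromal cells, 0 to 4 in skeletal sums, 1 to 9 in neutrophils, 0 to 5 in monocytes and 10 to 23 in the other blood classes. The genes called in all moved with these settings, so a count of members is read against them. With 1 library left out they ranged from 848 of 15977 to 7726 of 16113 over all cells, 72 of 13539 to 891 of 13581 in chondrocytes, 150 of 7011 to 621 of 11779 in stromal cells, 66 of 9791 to 1430 of 14317 in skeletal sums, 83 of 12104 to 4691 of 11521 in neutrophils and 0 of 10991 to 3625 of 10420 in monocytes. DESeq2 called 557 of 18369 genes in neutrophils. In the other blood classes it called 219 of 16665 in granulocyte progenitors, 19 of 13314 in dendritic cells and 250 of 15796 in B cells. It called 41 of 14179 in T and NK cells, 33 of 12562 in basophils and 78 of 11875 in erythroid cells. The fits without the filter called 527, 145, 562, 215, 94 and 139 of these genes, in the same order. Those with the block called 210, 3, 186, 55, 31 and 86 of the genes that passed the filter. Without the filter 963 of 17231, 1264 of 19962, 1393 of 18369 and 460 of 16751 were called in stromal, skeletal, neutrophil and monocyte sums, and with the block 3428 over all cells, 304 in chondrocytes, 542 in neutrophils and 30 in monocytes. An arm left with 1 library is assumed to vary like the other.

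Among skeletal sums the log2 fold change changed sign for Bglap2 with at least 4 markers (-0.20), for Enpp1 with library totals (0.085), and, with 1 library left out, for Spp1, Dmp1 and Enpp1 (ranges -0.032 to 1.45, -0.046 to 3.02 and -0.87 to 0.16). In chondrocyte sums it changed sign for Ibsp without doublets (-0.0087) and for Spp1 without the filter (-0.0056), with the replicate block (-0.20) and without doublets (-0.15). With 1 library left out, the chondrocyte ranges were -0.23 to 0.26 for Ibsp and -1.15 to 0.65 for Spp1. Without thinning the share of Ctrl chondrocytes with a UMI was 87.5% for Spp1 and 97.7% for Sparc, that of HLU chondrocytes 98.1% for Sparc, that of Ctrl neutrophils 76.6% for Spp1 and 57.0% for Sparc, and that of HLU neutrophils 28.4% for Spp1. The causes of these moves were not tested, apart from the thinning, which removes UMIs.

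Library totals moved the median over all genes to 0.28 in the stromal and 0.29 in the granulocyte progenitor sums. Osteoblast-gated cells were too few in HLU for a test, erythroid cells gave no fit with at most 0.2% haemoglobin UMIs, and basophils and erythroid cells gave none with at least 4 markers. Phex and Dmp1 rested on few UMIs in every class.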
